A study of Mus musculus with 12 samples.

Results

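The genes described here code for amino acid transporters of 7 solute carrier families, SLC1, SLC3, SLC6, SLC7, SLC36, SLC38 and SLC43, measured by RNA sequencing in MIN6 cells. They were chosen by name alone, as every gene in the deposited tables named Slc1a, Slc3a, Slc6a, Slc7a, Slc36a, Slc38a or Slc43a followed by a number, which took 61 of 49315 genes. Names with a further letter, such as Slc6a20a and Slc6a20b, were not taken. MIN6 is a mouse insulinoma line that stands in for β-cells in culture, here of WT genotype and, per the labels' protocols, cultured in DMEM with 15% FBS and 2 mM glutamine at 5% CO2. The 12 libraries form 4 groups of 3: control (ctrl, with no treatment named), starved (no amino acids for 16 h), re-added (amino acids given again for 3 h) and Rap (amino acids given again together with "Rap" for 3 h). No label writes out what Rap is, and none names its dose, the composition of the medium without amino acids or the length of starvation before re-addition. Separate cultures are not named either, so the p-values rest on a spread among libraries that may be technical only.

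Cells take up amino acids through carriers that differ in substrate, in the ions that drive them and in the membrane they sit in. SLC38 carriers of system A and the SLC1 exchangers move small neutral amino acids with sodium, SLC7 cationic carriers bring in arginine and lysine, and SLC7 light chains work as exchangers only when joined to a heavy chain of the SLC3 family. When amino acids run short, uncharged tRNA activates the kinase GCN2 and the transcription factor ATF4, which binds composite C/EBP-ATF elements of many transporter genes, while carriers on the lysosome pass amino acids and signals to the kinase complex mTORC1, which the series title names. In β-cells amino acids also feed insulin synthesis and stimulate secretion.

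Library totals ran from 18555958 to 25631056 counted reads, and of 49315 genes 16844 passed the filter on low counts. β-cell markers were present throughout, with 10 of 10 at 1 CPM or more in every control library and 9 of 10 in the libraries of the other groups. Their sum was 41000 to 55260 CPM in control and 33600 to 35870 CPM in starved libraries. It was 31220 to 36470 CPM in re-added and 35810 to 39050 CPM in Rap libraries. CPM is a read count scaled to a common library total, corrected by TMM factors for the transporters and by raw totals for the marker lists. Markers of other cell types were found as well, and their levels differed among the groups. The sum of 5 other islet cell markers was lowest in starved libraries, at 166 to 181 CPM. It was 263 to 310 CPM in control, 255 to 275 CPM in re-added and 250 to 268 CPM in Rap libraries. The summed level of 30 fibroblast, leukocyte and endothelium markers was 1977 to 2348 CPM in control, 161 to 1891 CPM in starved, 162 to 809 CPM in re-added and 146 to 153 CPM in Rap libraries, and Sftpc, the lung surfactant protein C gene, ran from 635 to 751 CPM in control down to 12.7 to 16.3 CPM in Rap libraries. None of these 30 markers was at 0 in every library of a group. Whether these reads come from other cells or from other libraries was not tested. Transporter genes whose library values are ordered like these markers are set apart below, and each main result was also computed with the marker sum as a covariate and between libraries of like marker level.

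Sequences upstream of transporter genes were read from RefSeq promoter windows (build GRCm38.p6, 250 bases before to 50 bases after a start), which held 43 of the 61 genes in 64 windows. TGATGNAA, the core of the composite element bound by C/EBP and ATF4, was found on either strand in 5 of these 64 windows, which belong to 4 genes (Slc1a4, Slc6a21, Slc7a7 and Slc7a11), and in 3.97% of all 32851 windows. The palindrome TCACGTGA, the element recognised by the lysosomal gene regulators of the TFEB family, was found in 1 of the 64, that of Slc36a1, and in 0.974% of all windows. Its core CACGTG, which TCACGTGA contains, was found in 9 of the 64 and in 7.15% of all windows. The 3 stretches below, each of 150 bases ending 4 bases after the start, are shown because their genes rose in starved cells and they hold these matches, given in capitals. In Slc7a11 the core occurs as TGATGCAA 66 bases before the start and, on the other strand, as TTGCATCA 47 bases before it. A match of letters is a description and shows no binding. Slc7a11, chr3:50443610-50443759, minus strand, Slc1a4, chr11:20332710-20332859, minus strand, and Slc36a1, chr11:55204194-55204343, plus strand, read 5′ to 3′ as follows.
Slc7a11: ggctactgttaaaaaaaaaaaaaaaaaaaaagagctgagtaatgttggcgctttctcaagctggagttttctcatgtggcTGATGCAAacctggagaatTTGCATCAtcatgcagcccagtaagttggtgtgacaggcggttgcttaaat
Slc1a4: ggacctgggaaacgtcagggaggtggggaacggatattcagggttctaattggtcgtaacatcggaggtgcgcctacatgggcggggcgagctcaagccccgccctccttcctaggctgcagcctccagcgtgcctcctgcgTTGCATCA
Slc36a1: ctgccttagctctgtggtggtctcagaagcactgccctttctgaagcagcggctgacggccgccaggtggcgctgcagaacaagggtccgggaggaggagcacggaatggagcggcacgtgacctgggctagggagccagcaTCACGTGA
The Slc36a1 stretch holds a further CACGTG 31 bases before the start, left in lower case.

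Of the 61 genes 46 passed the filter and were tested, and 33 reached a mean of 5 CPM in at least 1 group. The 15 that did not pass had total counts of 0 to 59 over all libraries. In starved against control, 19 of 46 tested transporter genes were higher and 2 lower at an adjusted p under 0.05 in edgeR's quasi-likelihood test. This is 41.3% and 4.35% of them, beside 24.3% higher and 14.6% lower of all 16844 tested genes, and their median log2 fold change was 0.24 beside 0.01. All 21 called genes were among the 33 with 5 CPM or more, where the median was 0.63. A gene enters the 33 through its highest group, so this median is not independent of the changes. The median of all tested genes at the same cut is not given. With upper-quartile factors in place of TMM the median of all tested genes moved from 0.01 to -0.13 and the share of calls that were higher from 62.5% to 44.6%, while 19 transporter genes were higher and 3 lower, beside 17.6% and 21.8% of all tested genes. Starved replicate 1 alone among the starved libraries had a marker sum above 1000 CPM, as all control libraries did, and in the comparison of these libraries 14 transporter genes were higher and 2 lower, beside 9.25% and 8.88% of all tested genes. The calls lost there were those of Slc6a19 (0.68, adjusted p = 0.104), Slc7a6 (0.33, adjusted p = 0.207), Slc7a11 (0.99, adjusted p = 0.0821), Slc7a14 (0.50, adjusted p = 0.174) and Slc36a4 (0.39, adjusted p = 0.162).

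In re-added against starved, 7 of 46 were higher and 18 lower, 15.2% and 39.1%, beside 18.4% and 18.8% of all tested genes. Their median log2 fold change was -0.47 beside -0.06. Between the libraries with marker sums under 200 CPM, starved replicate 2 and re-added replicates 2 and 3, 2 were higher and 13 lower, beside 9.37% and 10.8% of all tested genes. Such a lone starved library was taken to have the spread of the remaining groups. In Rap against re-added 4 were higher and 4 lower, 8.7% each, beside 4.55% and 3.43%, with a median of -0.14 beside 0.00. Without re-added replicate 1, the one library of these groups with a marker sum above 200 CPM, 3 were higher and 3 lower, beside 2.95% and 3.1%. Without re-added replicate 3, without Rap replicate 2 or without Rap replicate 3 the number called was 5 in place of 8, beside 3.7%, 3.85% and 4.01% of all tested genes called in either direction. The first 2 of these comparisons share the starved libraries and the last 2 share the re-added libraries, so their values are given side by side and are not independent.

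**Figure D1:**
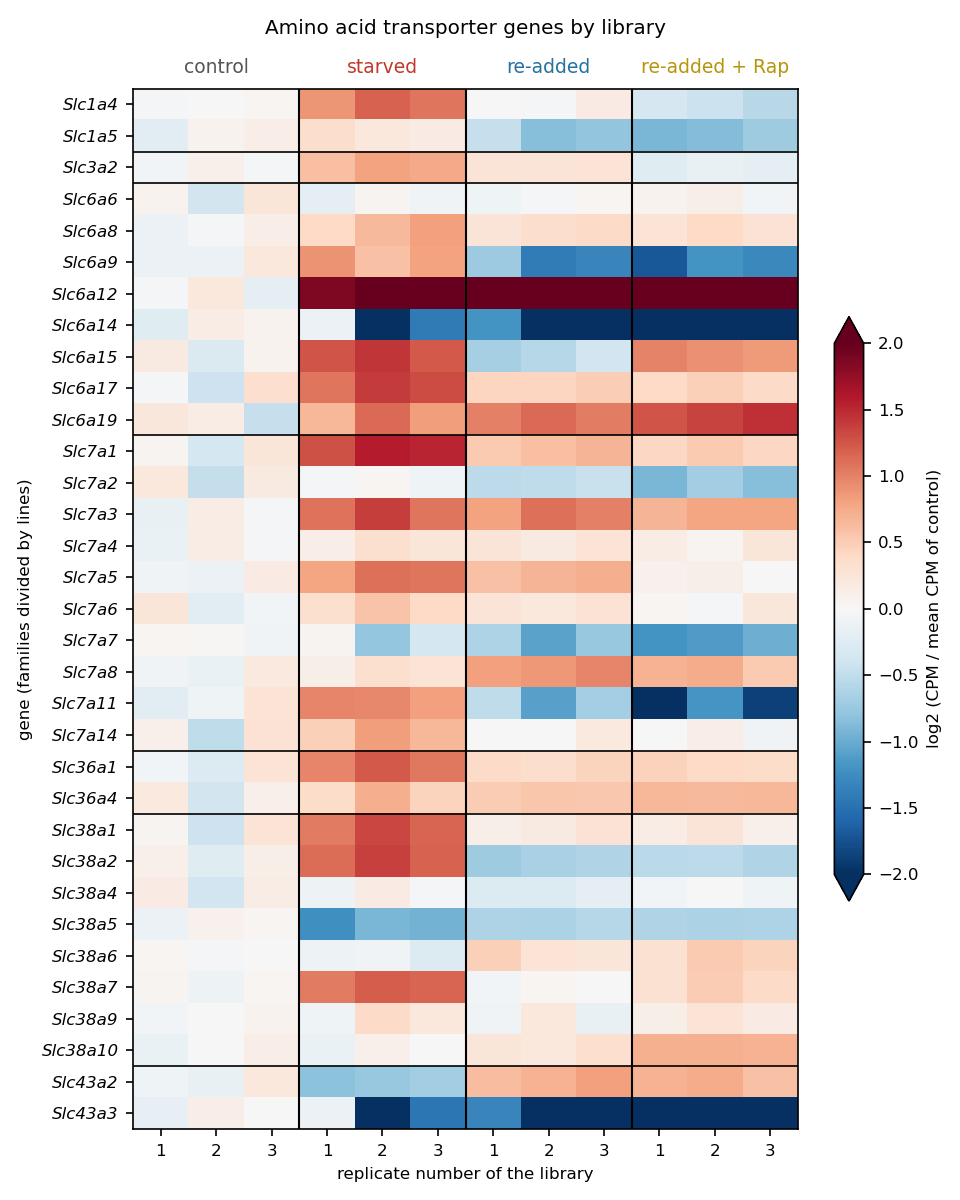
Heat map of the 33 transporter genes with a mean of at least 5 CPM in a group (rows, grouped by family) over the 12 libraries (columns); colour is the log2 ratio of a library's TMM-scaled CPM to the control mean, limited to 2 in either direction. Most rows of the SLC1, SLC3, SLC6, SLC7 and SLC36 families are red in the starved libraries, as are Slc38a1, Slc38a2 and Slc38a7. Slc38a5 and Slc43a2 are blue there, and Slc6a14 and Slc43a3 differ among the libraries of 1 group.

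The SLC38 family holds the sodium-coupled neutral amino acid transporters. Slc38a2 (chromosome 15, 96687394 to 96699698, minus strand), the system A carrier known for its induction by amino acid shortage, stood at 184, 145 and 186 CPM in control and 372, 443 and 388 CPM in starved libraries. The re-added libraries held 105, 109.7 and 113 CPM and the Rap libraries 119, 119 and 113 CPM. The starved libraries lay above all others, and the re-added and Rap libraries lay below all control libraries while overlapping each other. It was 2.33-fold (log2 fold change 1.22, SE 0.10, adjusted p = 4.6e-06) higher in starved cells and 3.67-fold (log2 fold change -1.88, SE 0.10, adjusted p = 1.5e-07) lower on re-addition. It ended below control, 1.57-fold (log2 fold change -0.65, SE 0.10, adjusted p = 4.2e-04) lower in re-added cells, and the difference of Rap from re-added was 0.10 (adjusted p = 0.6).

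Slc38a1 (chromosome 15, 96571418 to 96642913, minus strand), the other widely expressed system A carrier of glutamine and alanine, stood at 72.5, 52.1 and 84.4 CPM in control and 143, 176 and 157 CPM in starved libraries. With amino acids given again the values were 75.8, 78.6 and 84.9 CPM, and with Rap 77.2, 83.35 and 74.85 CPM. Its starved libraries lay above all others, and those of the remaining groups overlapped. It was 2.27-fold (log2 fold change 1.18, SE 0.14, adjusted p = 7.8e-05) higher in starved cells and 1.98-fold (log2 fold change -0.99, SE 0.14, adjusted p = 2.1e-04) lower on re-addition, and re-added cells were not called against control (0.19, adjusted p = 0.271). The third system A gene, Slc38a4, had a mean of 365 ± 73.8 CPM in control, 369.6 ± 35.8 CPM in starved, 307 ± 9.65 CPM in re-added and 354 ± 10.1 CPM in Rap cells. It was called in none of the 5 comparisons (log2 fold change 0.02, adjusted p = 0.914, in starved against control), and with the marker sum as a covariate it was called lower in re-added than in starved cells (-0.34, adjusted p = 0.0378). These system A genes lie within a stretch of chromosome 15, with 44.5 kb between Slc38a1 and Slc38a2 and 295.1 kb between Slc38a2 and Slc38a4.

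Slc38a7 (chromosome 8, 95835920 to 95853539, minus strand), a carrier that exports glutamine and asparagine from lysosomes, stood at 24.2, 21.8 and 23.9 CPM in control and 47.85, 54.03 and 52.2 CPM in starved libraries. Re-added libraries gave 22.45, 23.99 and 23.5 CPM, and Rap libraries 28.9, 33.2 and 30.3 CPM. Starved libraries lay above the Rap libraries, and Rap above control and re-added libraries, which overlapped. The change was 2.2-fold (log2 fold change 1.14, SE 0.08, adjusted p = 1.9e-06) upward in starved cells and 2.2-fold (log2 fold change -1.14, SE 0.08, adjusted p = 1.4e-06) downward on re-addition. With Rap it was 1.32-fold (log2 fold change 0.40, SE 0.08, adjusted p = 0.0108) higher than with re-addition alone. That last call was lost without Rap replicate 2 (0.34, adjusted p = 0.0627) and in the limma fit of log2(TPM + 1) (0.28, adjusted p = 0.0707).

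Slc38a5 (chromosome X, 8271133 to 8280179, plus strand), a system N carrier of glutamine, asparagine and histidine, moved the other way. It stood at 89.5, 103 and 99.8 CPM in control and 41.7, 51.7 and 50.65 CPM in starved libraries. Its level was 63.7, 62.6 and 65.8 CPM in re-added and 64.5, 62.8 and 63.4 CPM in Rap libraries. Every starved library lay below every re-added and Rap library, and those below every control library. It was 2.03-fold (log2 fold change -1.02, SE 0.09, adjusted p = 5.4e-06) lower in starved cells and 1.33-fold (log2 fold change 0.42, SE 0.09, adjusted p = 0.00245) higher on re-addition. Between libraries of like marker level the second difference was 0.37 (adjusted p = 0.0691). The other system N gene, Slc38a3, stayed under 5 CPM, with 3.99 ± 0.824 CPM in control, 4.18 ± 0.0572 CPM in starved, 4.16 ± 0.8885 CPM in re-added and 2.76 ± 0.5705 CPM in Rap cells, and was called in none of the 3 main comparisons.

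Slc38a10 (chromosome 11, 120103960 to 120151346, minus strand), a less studied member linked to glutamine and glutamate transport, was not called in starved cells (-0.01, adjusted p = 0.948). Its values were 249, 271 and 299 CPM in control and 249, 293.5 and 272 CPM in starved libraries. In re-added libraries it stood at 323, 316.5 and 344 CPM and in Rap libraries at 447, 445 and 442 CPM. Control and starved libraries overlapped, the re-added libraries lay above both and the Rap libraries above these. It was 1.21-fold (log2 fold change 0.27, SE 0.08, adjusted p = 0.021) higher in re-added than in starved cells and 1.36-fold (log2 fold change 0.44, SE 0.08, adjusted p = 0.0062) higher again with Rap, and 5.72% of its exon bases are shared with Gm11769 on the other strand. With the marker sum as a covariate the difference of re-added from starved was 0.22 (adjusted p = 0.0605), and that of Rap from re-added was 0.40 (adjusted p = 0.00664). Slc38a6, with 7.67 ± 0.223 CPM in control, 6.92 ± 0.487 CPM in starved, 9.64 ± 0.877 CPM in re-added and 10.3 ± 0.7796 CPM in Rap cells, rose on re-addition (1.39-fold, log2 fold change 0.48, SE 0.12, adjusted p = 0.00897). Between libraries of like marker level the differences were 0.23 for Slc38a10 (adjusted p = 0.248) and 0.39 for Slc38a6 (adjusted p = 0.162). Slc38a9, which codes for the lysosomal arginine sensor of mTORC1, had 6.4 ± 0.279 CPM in control, 7.29 ± 1.18 CPM in starved, 6.402 ± 0.862 CPM in re-added and 7.28 ± 0.438 CPM in Rap cells and was called in no comparison.

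**Figure D2:**
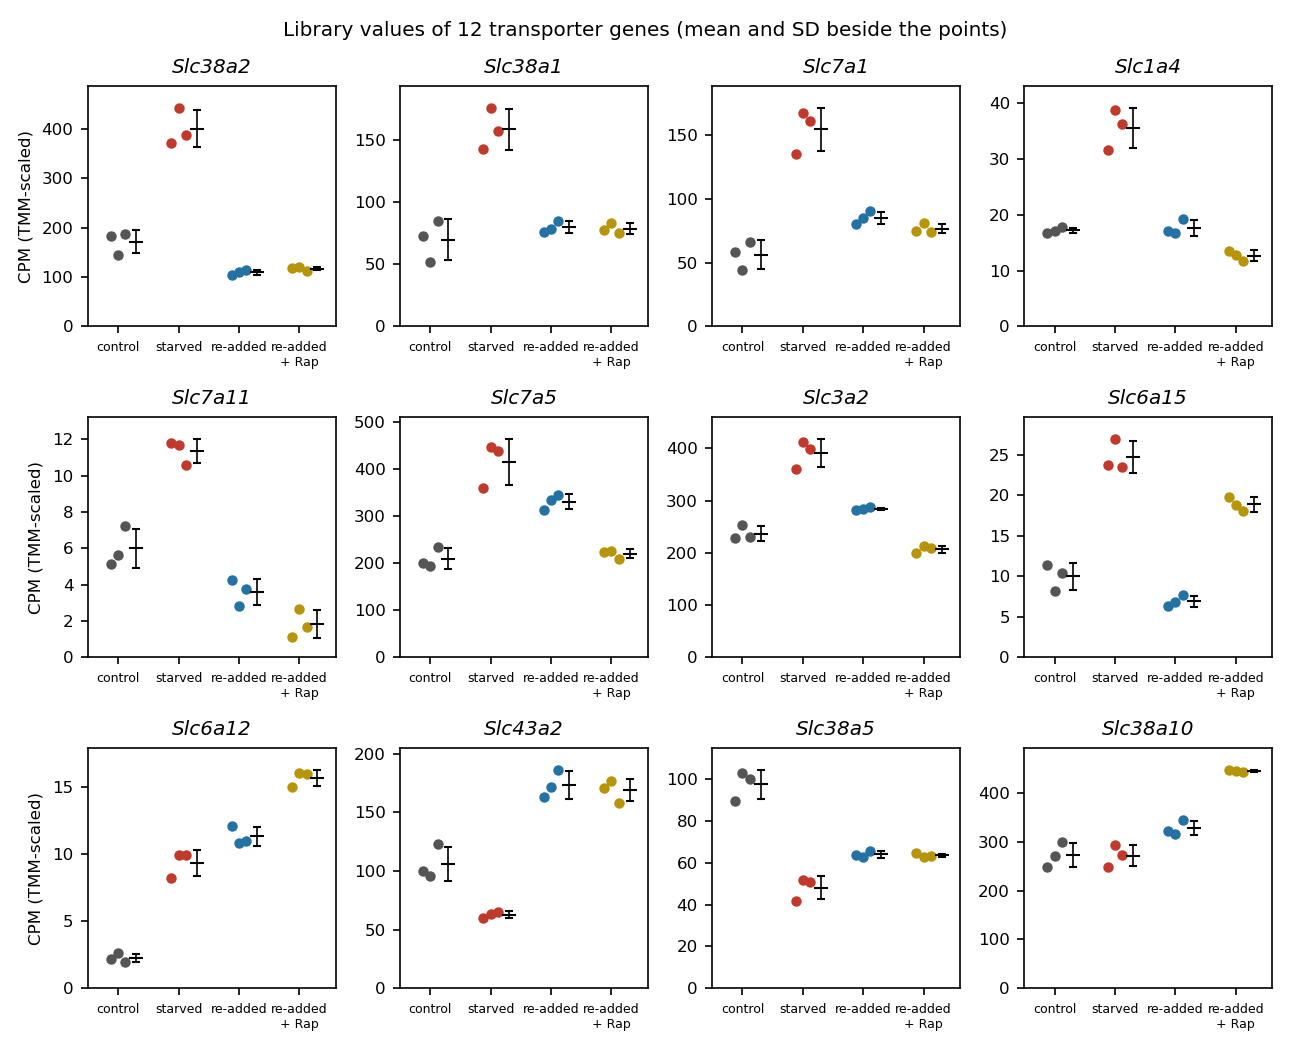
TMM-scaled CPM of 12 transporter genes, 1 panel per gene with its own linear axis from 0; each coloured point is a library and the bar beside each group is the mean with SD over 3 libraries. Starved libraries are the highest for Slc38a2, Slc38a1, Slc7a1, Slc1a4, Slc7a11, Slc7a5, Slc3a2 and Slc6a15 and the lowest for Slc43a2 and Slc38a5, and for Slc6a15 the Rap libraries lie apart from the re-added ones.

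In the SLC7 family, Slc7a1 (chromosome 5, 148327410 to 148399904, minus strand), the main carrier of arginine, lysine and ornithine in most cells, stood at 57.9, 43.8 and 66.3 CPM in control and 135.5, 167 and 161 CPM in starved libraries. The re-added libraries held 80.2, 85.03 and 90.1 CPM and the Rap libraries 74.96, 80.65 and 74.3 CPM. The starved libraries lay above all others and the re-added libraries above every control library. It was 2.76-fold (log2 fold change 1.46, SE 0.13, adjusted p = 9.2e-06) higher in starved cells and 1.82-fold (log2 fold change -0.86, SE 0.13, adjusted p = 2.8e-04) lower on re-addition, and 1.52-fold (log2 fold change 0.60, SE 0.13, adjusted p = 0.00345) above control in re-added cells. The last call was lost with the marker sum as a covariate (0.39, adjusted p = 0.132). Slc7a3 (chromosome X, 101079210 to 101086020, minus strand), a cationic carrier of neurons and other excitable cells, stood at 8.51, 10.5 and 9.24 CPM in control and 20.03, 24.4 and 19.7 CPM in starved libraries. With amino acids given again the values were 16.4, 20.2 and 18.9 CPM, and with Rap 15.1, 16.2 and 16.2 CPM. Control libraries lay below all others, and starved and re-added libraries overlapped. It was 2.27-fold (log2 fold change 1.18, SE 0.12, adjusted p = 2.5e-05) higher in starved cells. The difference of re-added from starved was not called (log2 fold change -0.21, adjusted p = 0.185), but it was with the marker sum as a covariate (-0.32, adjusted p = 0.0322).

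Slc7a2, a further cationic carrier, had 83.2 ± 20.5 CPM in control, 81.6 ± 3.58 CPM in starved, 59.1 ± 1.78 CPM in re-added and 47.3 ± 3.77 CPM in Rap cells. It was not called in starved cells (-0.03, adjusted p = 0.879) and fell on re-addition (1.38-fold, log2 fold change -0.46, SE 0.14, adjusted p = 0.0243). Slc7a14, a lysosomal relative of the cationic carriers, had 211 ± 56.97 CPM in control, 335 ± 41.01 CPM in starved, 221 ± 18.9 CPM in re-added and 215 ± 15.2 CPM in Rap cells, with a rise in starved cells (1.59-fold, log2 fold change 0.67, SE 0.17, adjusted p = 0.00777) and a fall on re-addition (1.52-fold, log2 fold change -0.60, SE 0.17, adjusted p = 0.0142). Between libraries of like marker level these falls were not called, at -0.46 for Slc7a2 (adjusted p = 0.166) and -0.68 for Slc7a14 (adjusted p = 0.052). Slc7a4, a member of the cationic branch whose substrate is unclear, had 32.3 ± 3.296 CPM in control, 37.96 ± 2.47 CPM in starved, 38.1 ± 1.29 CPM in re-added and 35.8 ± 2.43 CPM in Rap cells and was called in none of the 3 main comparisons. Exon bases shared with genes on the other strand were 13.9% for Slc7a4 (P2rx6) and 6.95% for Slc7a2 (Gm26584). The control group was spread for Slc7a2 and Slc7a14, with replicate 2 at 59.6 and 148 CPM below both other control libraries. This library was the lowest of its group in 18 of the 33 genes. Starved replicate 1 was the lowest of its group in 23 of them and starved replicate 2 the highest in 24. Each was the lone starved library in comparisons of like marker level, and what part this had there was not tested.

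The heterodimeric exchangers pair a light chain of SLC7 with a heavy chain of SLC3. Slc3a2 (chromosome 19, 8706882 to 8723369, minus strand), the heavy chain that carries light chains to the plasma membrane, stood at 228, 253 and 229 CPM in control and 360.3, 413 and 399 CPM in starved libraries. Re-added libraries gave 282, 283 and 287 CPM, and Rap libraries 200, 213 and 208 CPM. Each starved library lay above each re-added library, these above each control library, and Rap libraries lay below all others. Slc3a2 was 1.65-fold (log2 fold change 0.72, SE 0.07, adjusted p = 1.7e-05) higher in starved cells, 1.38-fold (log2 fold change -0.46, SE 0.07, adjusted p = 3.2e-04) lower on re-addition and 1.37-fold (log2 fold change -0.46, SE 0.07, adjusted p = 0.00211) lower again with Rap.

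Slc7a5 (chromosome 8, 121881150 to 121907694, minus strand), the light chain that exchanges intracellular glutamine for leucine and other large neutral amino acids, stood at 199.7, 193 and 234 CPM in control and 359, 447 and 439 CPM in starved libraries. Its level was 313.5, 333 and 344 CPM in re-added and 223, 227 and 209 CPM in Rap libraries. The starved libraries lay above the re-added ones, and these above the control and Rap libraries, which overlapped. It was 1.99-fold (log2 fold change 0.99, SE 0.10, adjusted p = 2.0e-05) higher in starved cells and 1.26-fold (log2 fold change -0.33, SE 0.10, adjusted p = 0.0193) lower on re-addition. With Rap it was 1.51-fold (log2 fold change -0.59, SE 0.10, adjusted p = 0.00325) lower than with re-addition alone. Re-added cells were 1.58-fold (log2 fold change 0.66, SE 0.10, adjusted p = 3.8e-04) above control. The fall on re-addition was -0.26 without starved replicate 3 (adjusted p = 0.0606), -0.34 without re-added replicate 2 (adjusted p = 0.0542) and -0.34 between libraries of like marker level (adjusted p = 0.0867). The fall with Rap kept its call in all 21 alternatives, between -0.69 and -0.55.

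In TPM, which counts reads per length of exon and so allows genes to be compared, the ratio of Slc7a5 to Slc3a2 was 0.83, 0.73 and 0.97 in control, 0.95, 1.03 and 1.05 in starved, 1.06, 1.12 and 1.14 in re-added and 1.06, 1.01 and 0.95 in Rap libraries. The light chain was thus below its heavy chain in every control library and above it in every re-added library. These are transcript ratios, in which other light chains that use Slc3a2 are not counted.

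Slc7a11 (chromosome 3, 49892526 to 50443614, minus strand), the light chain that imports cystine in exchange for glutamate and whose promoter stretch holds both core matches shown above, stood at 5.14, 5.62 and 7.22 CPM in control and 11.8, 11.7 and 10.6 CPM in starved libraries. In re-added libraries it stood at 4.23, 2.81 and 3.75 CPM and in Rap libraries at 1.14, 2.65 and 1.64 CPM. Starved libraries lay above control, control above re-added and re-added above Rap libraries. It was 1.9-fold (log2 fold change 0.92, SE 0.26, adjusted p = 0.0136) higher in starved cells and 3.16-fold (log2 fold change -1.66, SE 0.26, adjusted p = 4.3e-04) lower on re-addition, where it was 1.66-fold (log2 fold change -0.74, SE 0.26, adjusted p = 0.0356) below control. The last of these was not called with the marker sum as a covariate (-0.62, adjusted p = 0.176). The rise was 0.82 without control replicate 1 (adjusted p = 0.0535) and 0.99 between libraries of like marker level (adjusted p = 0.0821). With Rap it was 1.99-fold (log2 fold change -0.99, SE 0.27, adjusted p = 0.0473) lower than with re-addition alone, a call lost in 11 of 21 alternatives, where the difference ran from -1.14 to -0.37.

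The light chain for small and large neutral amino acids, Slc7a8, had 31.7 ± 3.89 CPM in control, 37.45 ± 2.75 CPM in starved, 58.85 ± 3.38 CPM in re-added and 49.8 ± 3.84 CPM in Rap cells. It was not called in starved cells (0.24, adjusted p = 0.0766) and rose on re-addition (1.57-fold, log2 fold change 0.65, SE 0.10, adjusted p = 3.2e-04). Slc7a6, which exchanges cationic for neutral amino acids, had 48.2 ± 7.85 CPM in control, 65.1 ± 5.998 CPM in starved, 57.3 ± 1.49 CPM in re-added and 51.01 ± 4.83 CPM in Rap cells and rose in starved cells (1.35-fold, log2 fold change 0.43, SE 0.11, adjusted p = 0.0105), a call lost between libraries of like marker level and with the marker sum as a covariate (0.33, adjusted p = 0.058). Its relative Slc7a7 had 6.18 ± 0.233 CPM in control, 4.95 ± 1.38 CPM in starved, 3.55 ± 0.5499 CPM in re-added and 2.89 ± 0.229 CPM in Rap cells and was called in none of the 3 main comparisons. Slc7a7 shares 7.05% of its exon bases with Oxa1l on the other strand. Slc7a7 and Slc7a8 lie 304.4 kb apart on chromosome 14.

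In the SLC1 family, Slc1a4 (chromosome 11, 20302180 to 20332713, minus strand), the exchanger of alanine, serine, cysteine and threonine, stood at 16.8, 17.02 and 17.8 CPM in control and 31.7, 38.85 and 36.3 CPM in starved libraries. The re-added libraries held 17.1, 16.7 and 19.3 CPM and the Rap libraries 13.6, 12.7 and 11.7 CPM. The starved libraries lay above all others, control and re-added libraries overlapped, and Rap libraries lay below all. It was 2.07-fold (log2 fold change 1.05, SE 0.10, adjusted p = 1.3e-05) higher in starved cells, 2.01-fold (log2 fold change -1.01, SE 0.10, adjusted p = 1.2e-05) lower on re-addition and 1.4-fold (log2 fold change -0.48, SE 0.10, adjusted p = 0.0119) lower again with Rap. The last call was lost without re-added replicate 3 (-0.41, adjusted p = 0.0703), without Rap replicate 2 (-0.48, adjusted p = 0.0533) and without Rap replicate 3 (-0.43, adjusted p = 0.0684). Slc1a5, the related glutamine exchanger, had 31.1 ± 3.87 CPM in control, 36.8 ± 2.64 CPM in starved, 19.3 ± 2.88 CPM in re-added and 17.6 ± 1.25 CPM in Rap cells. It was not called in starved cells (0.24, adjusted p = 0.132), was called with the marker sum as a covariate (0.37, adjusted p = 0.0366), and fell on re-addition (1.91-fold, log2 fold change -0.93, SE 0.12, adjusted p = 1.1e-04). The glutamate carriers of the family (Slc1a1, Slc1a2, Slc1a3, Slc1a6 and Slc1a7) did not reach 5 CPM in any group.

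The SLC6 family carries amino acids, taurine, creatine and transmitters with sodium and chloride. Slc6a15 (chromosome 10, 103367808 to 103419378, plus strand), a carrier of branched-chain amino acids and proline, stood at 11.35, 8.16 and 10.45 CPM in control and 23.75, 26.9 and 23.45 CPM in starved libraries. With amino acids given again the values were 6.32, 6.76 and 7.63 CPM, and with Rap 19.8, 18.8 and 17.98 CPM. Starved libraries lay above Rap, Rap above control and control above re-added libraries, with no overlap between any groups. It was 2.47-fold (log2 fold change 1.3, SE 0.13, adjusted p = 1.8e-05) higher in starved cells and 3.57-fold (log2 fold change -1.84, SE 0.13, adjusted p = 1.3e-06) lower on re-addition. With Rap it was 2.73-fold (log2 fold change 1.45, SE 0.13, adjusted p = 6.0e-05) higher than with re-addition alone, the largest difference between these groups among the 8 called transporter genes, and this call was kept in all 21 alternatives, between 1.21 and 1.53. Rap cells stayed 1.31-fold (log2 fold change -0.39, SE 0.12, adjusted p = 0.0254) below starved cells, which between libraries of like marker level was -0.47 (adjusted p = 0.0924).

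Slc6a12 (chromosome 6, 121343076 to 121365775, plus strand), the carrier of betaine and GABA, stood at 2.19, 2.59 and 1.97 CPM in control and 8.18, 9.89 and 9.91 CPM in starved libraries. Re-added libraries gave 12.1, 10.85 and 10.95 CPM, and Rap libraries 14.95, 16.04 and 15.96 CPM. Each group lay wholly above the one before it, from control to starved, re-added and Rap. It was 4.14-fold (log2 fold change 2.05, SE 0.14, adjusted p = 1.3e-06) higher in starved cells and 5.02-fold (log2 fold change 2.33, SE 0.14, adjusted p = 1.0e-06) higher in re-added cells than in control. The step from starved to re-added was not called (0.28, adjusted p = 0.11). The step from re-added to Rap was 1.38-fold (log2 fold change 0.47, SE 0.13, adjusted p = 0.0445), a call lost in 12 of 21 alternatives, with values from 0.44 to 0.50 in those. Its neighbour Slc6a13, 5.3 kb away and also a GABA carrier, had 0.789 ± 0.09002 CPM in control, 0.416 ± 0.0702 CPM in starved, 0.927 ± 0.269 CPM in re-added and 0.565 ± 0.207 CPM in Rap cells and was higher in re-added than in starved cells (2.22-fold, log2 fold change 1.15, SE 0.36, adjusted p = 0.027). That call was lost with the marker sum as a covariate (1.02, adjusted p = 0.0604) and between libraries of like marker level (1.1, adjusted p = 0.216).

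Slc6a17 (chromosome 3, 107467543 to 107518018, minus strand), a vesicular carrier of neutral amino acids in neurons, stood at 82.1, 63.15 and 106 CPM in control and 175, 219.6 and 206 CPM in starved libraries. Its level was 113, 112.5 and 118 CPM in re-added and 110.3, 116 and 109 CPM in Rap libraries. Starved libraries lay above all others, and the re-added and Rap libraries, which overlapped, lay above all control libraries. It was 2.39-fold (log2 fold change 1.26, SE 0.15, adjusted p = 6.8e-05) higher in starved cells and 1.75-fold (log2 fold change -0.81, SE 0.15, adjusted p = 0.00112) lower on re-addition. Slc6a9 (chromosome 4, 117834506 to 117875198, plus strand), a glycine carrier, stood at 6.98, 6.97 and 8.71 CPM in control and 14.1, 11.3 and 13.15 CPM in starved libraries. In re-added libraries it stood at 4.57, 2.86 and 3.025 CPM and in Rap libraries at 2.33, 3.31 and 3.099 CPM. Starved libraries lay above control, and control above the re-added and Rap libraries, which overlapped. It was 1.7-fold (log2 fold change 0.77, SE 0.20, adjusted p = 0.00991) higher in starved cells and 3.7-fold (log2 fold change -1.89, SE 0.21, adjusted p = 3.3e-05) lower on re-addition, and 30.2% of its exon bases are shared with genes on the other strand (Gm17114, Ccdc24 and B4galt2), whose reads could not be separated here.

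Slc6a8, the creatine carrier, had 28.2 ± 2.53 CPM in control, 43.7 ± 6.39 CPM in starved, 35.5 ± 1.49 CPM in re-added and 35.3 ± 1.75 CPM in Rap cells, with a rise in starved cells (1.55-fold, log2 fold change 0.63, SE 0.11, adjusted p = 7.4e-04) and a fall on re-addition (1.23-fold, log2 fold change -0.30, SE 0.11, adjusted p = 0.0438) that was not called between libraries of like marker level (-0.22, adjusted p = 0.316). Slc6a19, known as the main neutral amino acid carrier of gut and kidney brush borders, had 2.98 ± 0.715 CPM in control, 5.53 ± 0.911 CPM in starved, 6.199 ± 0.323 CPM in re-added and 7.66 ± 0.5355 CPM in Rap cells and rose in starved cells (1.85-fold, log2 fold change 0.88, SE 0.20, adjusted p = 0.00388). Slc6a6, the taurine carrier, had 293 ± 60.5 CPM in control, 280.4 ± 22.97 CPM in starved, 288 ± 11.8 CPM in re-added and 302 ± 17.15 CPM in Rap cells. It was called in no comparison, and 1.38% of its exon bases are shared with Gm44981 on the other strand.

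In the SLC36 family of proton-coupled carriers, Slc36a1 (chromosome 11, 55204350 to 55236330, plus strand), which exports small neutral amino acids from lysosomes and acts with mTORC1, stood at 41.7, 36.03 and 52.7 CPM in control and 85.1, 102 and 90.03 CPM in starved libraries. The re-added libraries held 56.8, 55.3 and 58.9 CPM and the Rap libraries 59.96, 57.55 and 55.9 CPM. Starved libraries lay above all others, and re-added and Rap libraries, which overlapped, above all control libraries. It was 2.12-fold (log2 fold change 1.09, SE 0.12, adjusted p = 3.8e-05) higher in starved cells and 1.62-fold (log2 fold change -0.70, SE 0.12, adjusted p = 6.4e-04) lower on re-addition, where it was 1.31-fold (log2 fold change 0.39, SE 0.12, adjusted p = 0.0188) above control. With the marker sum as a covariate this difference from control was 0.24 and not called (adjusted p = 0.344). Slc36a4, a high-affinity carrier of proline and tryptophan, had 48.65 ± 9.78 CPM in control, 69.9 ± 9.396 CPM in starved, 70.4 ± 1.11 CPM in re-added and 76.5 ± 0.5565 CPM in Rap cells. It rose in starved cells (1.43-fold, log2 fold change 0.52, SE 0.13, adjusted p = 0.00776). Re-added cells differed from starved cells by 0.01 (adjusted p = 0.953).

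In the SLC43 family, Slc43a2 (chromosome 11, 75531694 to 75577575, plus strand), a facilitated carrier of leucine, phenylalanine and other large neutral amino acids, stood at 99.6, 95.45 and 123 CPM in control and 59.8, 62.9 and 65.4 CPM in starved libraries. With amino acids given again the values were 163, 171 and 186 CPM, and with Rap 171, 177 and 158 CPM. Starved libraries lay below all control libraries, and re-added and Rap libraries, which overlapped, above all control libraries. It was 1.69-fold (log2 fold change -0.76, SE 0.10, adjusted p = 1.2e-04) lower in starved cells and 2.77-fold (log2 fold change 1.47, SE 0.10, adjusted p = 7.2e-07) higher on re-addition, ending 1.64-fold (log2 fold change 0.71, SE 0.10, adjusted p = 2.0e-04) above control. Of its exon bases 9.18% are shared with Gm45606 on the other strand.

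**Figure D3:**
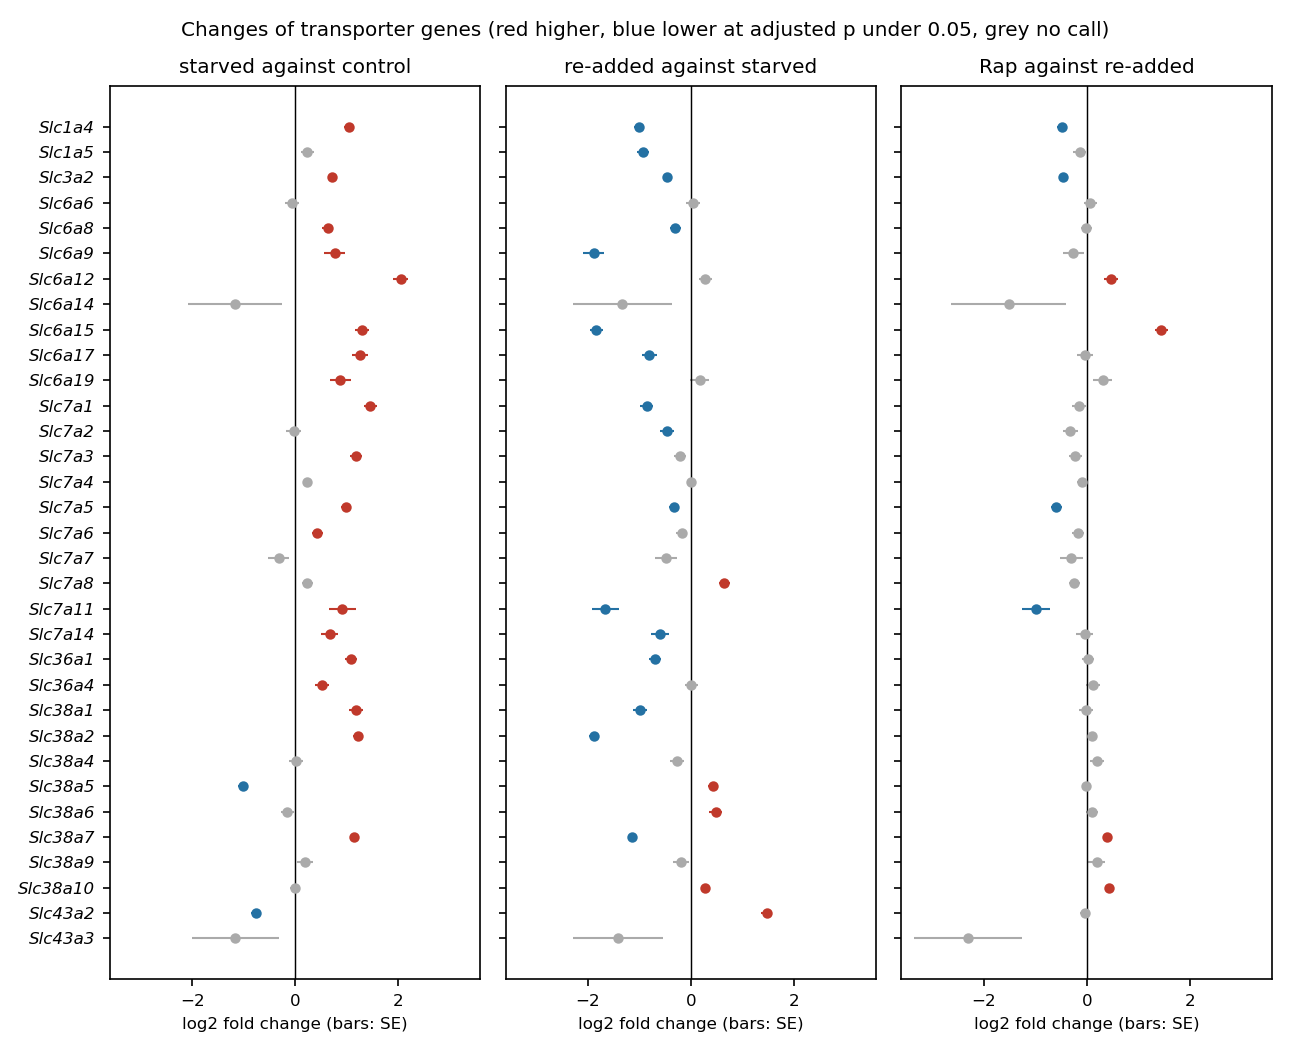
Log2 fold changes from edgeR for the 33 transporter genes of at least 5 CPM in the 3 main comparisons, 1 panel each; points are estimates, bars are SE, and red and blue mark calls at an adjusted p under 0.05. In starved against control 19 points are red and 2 blue (Slc38a5 and Slc43a2), in re-added against starved 5 are red and 16 blue, and in Rap against re-added 4 are red and 4 blue.

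In Rap against re-added, the 4 higher genes were Slc6a15, Slc38a10, Slc6a12 and Slc38a7 and the 4 lower ones Slc7a5, Slc3a2, Slc1a4 and Slc7a11. The remaining 38 tested genes were not called, among them Slc38a2, Slc38a1, Slc7a1, Slc36a1, Slc6a17, Slc38a5 and Slc43a2, whose differences ran from -0.15 for Slc7a1 to 0.10 for Slc38a2. A call that is missing does not show equal levels. For Slc7a1 the 6 libraries of these groups fitted alone gave -0.18 (adjusted p = 0.0368).

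Against starved cells directly, Rap cells had 7 transporter genes higher and 27 lower, 15.2% and 58.7% of 46, beside 20.2% and 23.9% of all tested genes, with a median log2 fold change of -0.71 beside -0.03. Between the libraries of like marker level, 4 were higher and 15 lower, beside 8.76% and 10.1% of all tested genes. Re-added cells against control had 16 higher and 15 lower, 34.8% and 32.6%, beside 24.8% and 24.5%, with a median of 0.00 beside 0.02. With the marker sum as a covariate 6 were higher and 5 lower, beside 7.99% and 8.18% of all tested genes. Without re-added replicate 3, 10 were higher and 9 lower, beside 17.8% and 12.6%.

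Per length, Slc38a4 led the transporter genes in control at 248 ± 65.7 TPM, followed by Slc3a2 at 178 ± 4.12 and Slc7a5 at 151 ± 25.5, and library values of neighbours in this order overlapped. In starved libraries Slc7a5 at 323 ± 17.5 and Slc3a2 at 320.3 ± 3.099 TPM came first and overlapped, and Slc38a4 at 270.3 ± 10.6 and Slc38a2 at 250.5 ± 10.2 TPM followed without overlap. In re-added libraries the order was Slc7a5, Slc3a2, Slc38a4 and Slc38a10, at 254 ± 13.5, 229.5 ± 5.32, 222 ± 9.99 and 146 ± 8.67 TPM, where Slc3a2 and Slc38a4 overlapped. In Rap libraries it was Slc38a4, Slc38a10, Slc7a5 and Slc3a2, at 238 ± 12.1, 184 ± 6.21, 157 ± 10.9 and 156 ± 5.28 TPM, where the last 2 overlapped. The families' order by summed TPM was led by SLC38 in every group.

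Summed over a family, the SLC7 genes had 332 ± 62.7 TPM in control, 606.5 ± 17.3 TPM in starved, 481 ± 26.7 TPM in re-added and 347 ± 18.3 TPM in Rap libraries. The SLC38 genes had 621 ± 109.6 TPM in control, 803 ± 22.8 TPM in starved, 568 ± 26.1 TPM in re-added and 617 ± 26.9 TPM in Rap libraries. The sum of SLC6 was 154 ± 36.3 TPM in control, 220.4 ± 1.47 TPM in starved, 173 ± 5.78 TPM in re-added and 176 ± 11.4 TPM in Rap libraries. For SLC3, which is nearly all Slc3a2, it was 179 ± 4.02 TPM in control, 321 ± 2.81 TPM in starved, 229.7 ± 5.198 TPM in re-added and 156 ± 5.3 TPM in Rap libraries. Lower sums were those of SLC36, with 43.6 ± 10.1 TPM in control, 79.95 ± 3.44 TPM in starved, 60.1 ± 1.92 TPM in re-added and 58.65 ± 2.62 TPM in Rap libraries. The SLC1 genes summed to 34.7 ± 3.84 TPM in control, 54.4 ± 3.48 TPM in starved, 27.8 ± 2.46 TPM in re-added and 20.99 ± 0.783 TPM in Rap libraries, and the SLC43 genes to 40.4 ± 6.13 TPM in control, 24.3 ± 7.25 TPM in starved, 51.5 ± 2.79 TPM in re-added and 45.03 ± 3.73 TPM in Rap libraries. For SLC43 the starved group was the lowest, and for the other 6 families it was the highest. The SLC43 sum includes Slc43a3, set apart below, at 13.07, 0.487 and 4.73 TPM in the starved libraries. Slc43a2 alone had 28.25 ± 5.67 TPM in control and 18.1 ± 0.958 TPM in starved libraries. The sums were not tested. TPM is scaled to a common total within a library and carries no TMM factor.

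**Figure D4:**
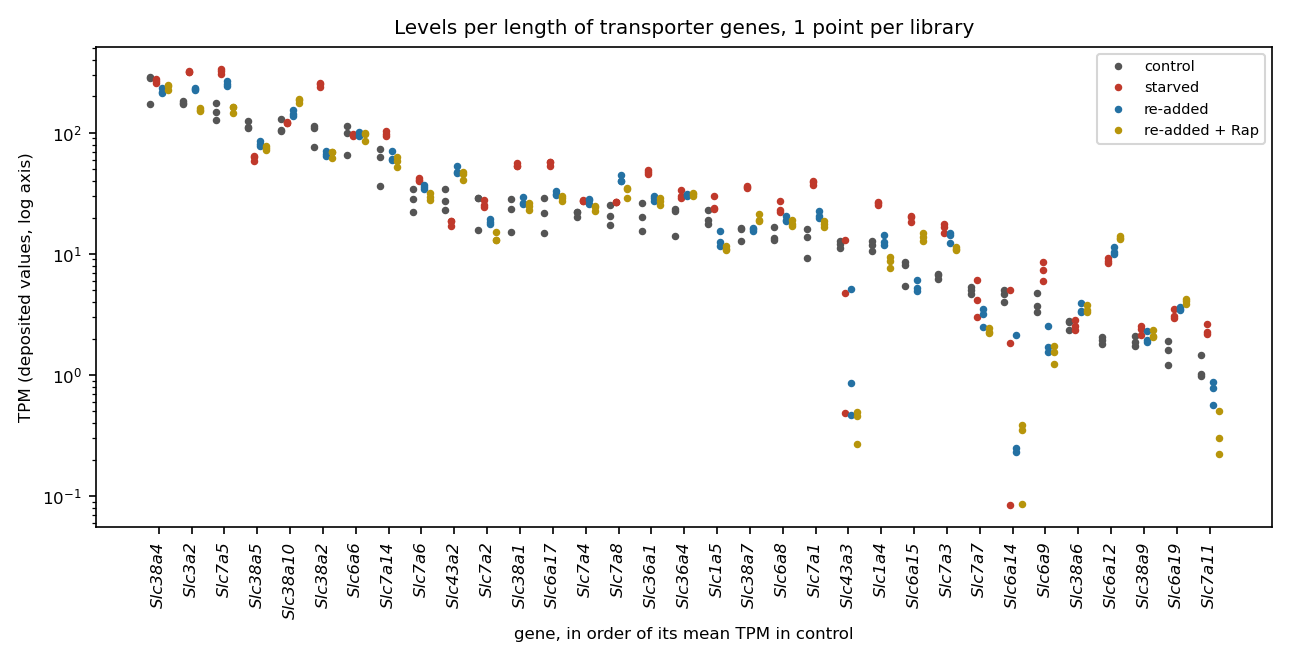
Deposited TPM on a log axis for the 33 transporter genes of at least 5 CPM in a group, ordered by their mean TPM in control, with 1 point per library coloured by group. Slc38a4, Slc3a2 and Slc7a5 are at the upper end, Slc7a11 is at the lower end, and Slc43a3 and Slc6a14 spread over more than a factor of 10 among the starved libraries.

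Of the tested genes 7 were ordered with the markers of other cells, being highest in the library with the highest marker sum, with a spread of at least 2-fold, in both the starved and the re-added group. Among these were Slc43a3, a carrier of purine bases, Slc6a14, which takes up neutral and cationic amino acids, the noradrenaline carrier Slc6a2, the glutamate carrier Slc1a3, the light chain Slc7a10 for small neutral amino acids, and the proton-coupled carrier Slc36a2. Slc43a3 stood at 18.1, 22.2 and 20.2 CPM in control and 18.6, 0.802 and 7.39 CPM in starved libraries. Re-added libraries gave 8.07, 1.38 and 0.724 CPM, and Rap libraries 0.8125, 0.772 and 0.4696 CPM. Marker sums were 1891, 161 and 911 CPM in the starved and 809, 168 and 162 CPM in the re-added libraries. Similarly, Slc6a14 stood at 4.985, 6.54 and 6.21 CPM in control and 5.46, 0.107 and 2.22 CPM in starved libraries. Its level was 2.58, 0.286 and 0.298 CPM in re-added and 0.108, 0.496 and 0.4696 CPM in Rap libraries. In both genes starved replicate 1 lay at the level of control and starved replicate 2 near the level of Rap libraries.

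Of these 7 genes 1, Slc1a3, was called in starved against control, re-added against starved or Rap against re-added, as lower in re-added than in starved cells (2.69-fold, log2 fold change -1.43, SE 0.52, adjusted p = 0.048). In re-added against control 5 of them were lower and in Rap against starved 4. With the marker sum as a covariate, or between libraries of like marker level, none of the 7 was called in any comparison that could be fitted, with adjusted p of 0.112 or more and 0.104 or more. Since their own values chose them, this is a description. Their levels were lower where the marker sums were lower, from control to Rap libraries, and the part of the reads behind the markers in these values was not tested. In bulk RNA, fewer cells of a type and less RNA per cell cannot be told apart. Without these 7 genes, 19 of 39 tested were higher and 2 lower in starved against control. This is 48.7% and 5.13%, beside 24.3% and 14.6% of all tested genes. None of the 7 was called there, so leaving them out could only raise these shares. All tested genes were not cut in this way, so here and below the shares set side by side are of unlike sets. In re-added against starved 7 and 17 were called, 17.9% and 43.6%, beside 18.4% and 18.8%. Rap against re-added had 4 and 4, 10.3% each, beside 4.55% and 3.43%. Rap against starved had 7 and 23, 17.9% and 59%, beside 20.2% and 23.9%. Re-added against control had 16 and 10, 41% and 25.6%, beside 24.8% and 24.5%. There the share called lower was near that of all tested genes.

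**Figure D5:**
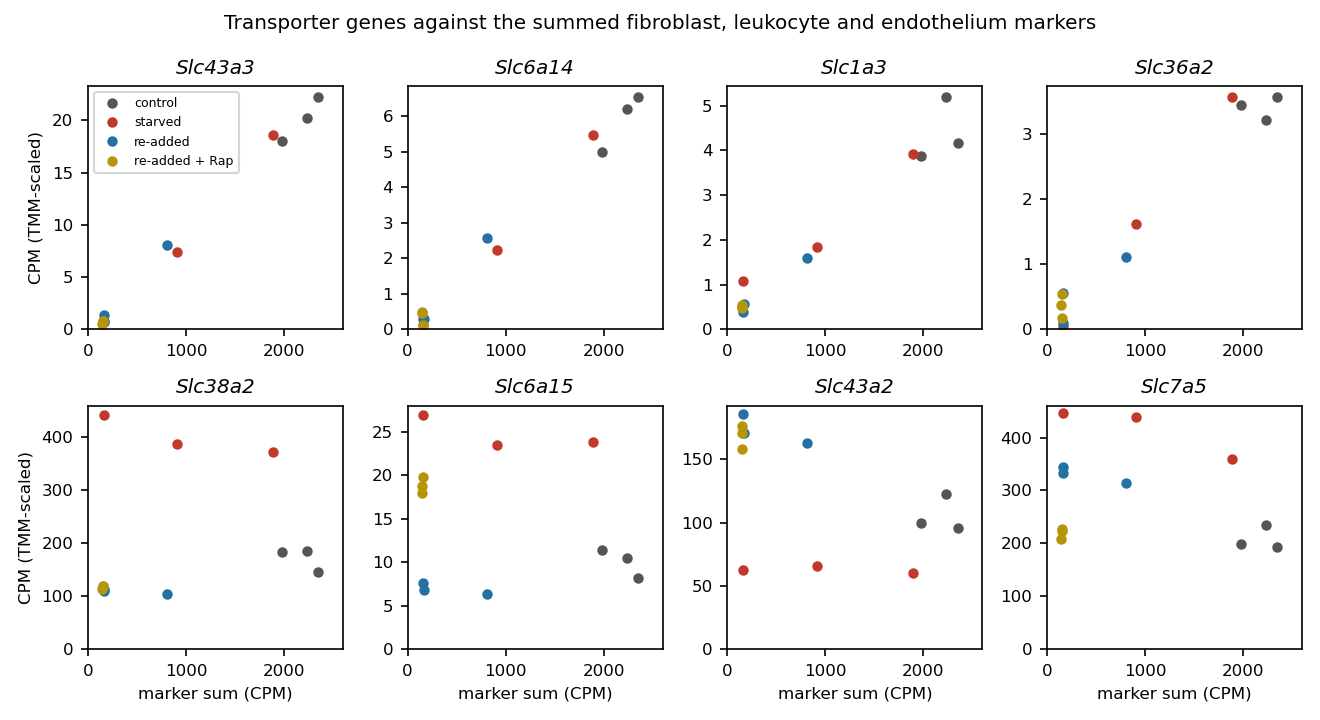
TMM-scaled CPM of 8 transporter genes (vertical axes, linear from 0) against the summed CPM of 30 fibroblast, leukocyte and endothelium markers (horizontal axes), with 1 point per library coloured by group. In the upper row Slc43a3, Slc6a14, Slc1a3 and Slc36a2 are high where the marker sum is high in any group. In the lower row the starved libraries of Slc38a2, Slc6a15, Slc43a2 and Slc7a5 spread less over marker sums from 161 to 1891 CPM. Starved replicate 1, with the highest marker sum of its group, is the lowest starved library for Slc38a2, Slc43a2 and Slc7a5. The genes were picked for display.

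Among the 13 tested genes under 5 CPM in every group, 4 were called in a main comparison, all in re-added against starved. Slc1a3 and Slc6a13 are given above. Slc38a8, a glutamine carrier of retina and brain, stood at 0.192, 0.05402 and 0.433 CPM in control and 0.155, 0.588 and 0.299 CPM in starved libraries. In re-added libraries it stood at 1.215, 1.48 and 1.45 CPM and in Rap libraries at 1.14, 1.599 and 1.22 CPM. It was 4.06-fold (log2 fold change 2.02, SE 0.51, adjusted p = 0.00876) higher on re-addition, and 1.36 between libraries of like marker level, where it was not called (adjusted p = 0.119). Slc3a1, the heavy chain of the renal cystine carrier, stood at 0.575, 0.5402 and 0.337 CPM in control and 1.05, 0.962 and 0.427 CPM in starved libraries. The re-added libraries held 0.194, 0.286 and 0.0852 CPM and the Rap libraries 0.1625, 0.386 and 0.4696 CPM. It was 4.26-fold (log2 fold change -2.09, SE 0.55, adjusted p = 0.0103) lower on re-addition, with 26.4% of its exon bases shared with Prepl on the other strand. The remaining 9 included Slc1a1, Slc1a2, Slc1a7, Slc6a2, Slc6a11, Slc7a10, Slc36a2 and Slc38a3. Genes not tested were Slc1a6, Slc6a3, Slc6a4, Slc6a5, Slc6a7, Slc6a16, Slc6a18, Slc6a21, Slc7a9, Slc7a12, Slc7a13, Slc7a15, Slc36a3, Slc38a11 and Slc43a1. Over all 5 comparisons 6 tested genes were never called: Slc1a1, Slc6a2, Slc6a6, Slc6a14, Slc38a4 and Slc38a9.

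Carriers of amino acids outside these families were counted for comparison, in a list of 23 of which 17 were tested. In starved against control 4 were higher and 2 lower, 23.5% and 11.8%, beside 24.3% and 14.6% of all tested genes. In re-added against starved 2 and 3 were called, 11.8% and 17.6%, beside 18.4% and 18.8%. In Rap against re-added it was 1 and 1, 5.88% each, beside 4.55% and 3.43%. For Rap against starved the numbers were 2 and 9, 11.8% and 52.9%, beside 20.2% and 23.9%. For re-added against control they were 1 and 7, 5.88% and 41.2%, beside 24.8% and 24.5%. The high share called lower in Rap against starved was thus not particular to the 7 families. Ctns, the lysosomal cystine exporter, had 20.98 ± 1.19 CPM in control, 47.9 ± 1.46 CPM in starved, 12.8 ± 1.065 CPM in re-added and 17.03 ± 1.09 CPM in Rap cells. It rose in starved cells (log2 fold change 1.19, adjusted p = 1.9e-06), fell on re-addition (-1.90, adjusted p = 5.7e-08) and was higher with Rap than with re-addition alone (0.41, adjusted p = 0.0147). Slc25a12, the mitochondrial aspartate-glutamate carrier, had 97.7 ± 14.35 CPM in control, 113 ± 11.6 CPM in starved, 44.1 ± 2.28 CPM in re-added and 34.6 ± 2.87 CPM in Rap cells and fell on re-addition (-1.35, adjusted p = 4.2e-06). Slc25a29, a mitochondrial carrier of basic amino acids, had 23.4 ± 1.25 CPM in control, 27.8 ± 2.905 CPM in starved, 43.4 ± 2.83 CPM in re-added and 43.5 ± 1.03 CPM in Rap cells. It rose in starved cells (0.25, adjusted p = 0.044) and again on re-addition (0.64, adjusted p = 1.5e-04).

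Genes of the ATF4 response that code for no transporter formed a second list of 27, all tested. In starved against control 21 were higher and 1 lower, 77.8% and 3.7%, beside 24.3% and 14.6% of all tested genes. The median log2 fold change was 0.72 beside 0.01. In re-added against starved 1 was higher and 19 lower, 3.7% and 70.4%, beside 18.4% and 18.8%, with a median of -0.50 beside -0.06. In Rap against re-added 0 were higher and 12 lower, 0% and 44.4%, beside 4.55% and 3.43%, with a median of -0.35 beside 0.00. Chac1, a glutathione-degrading enzyme, had 33.5 ± 2.02 CPM in control, 137 ± 14.7 CPM in starved, 36.3 ± 1.19 CPM in re-added and 23.1 ± 2.5 CPM in Rap cells. Atf5, a transcription factor related to ATF4, had 231.5 ± 28.8 CPM in control, 881 ± 85.4 CPM in starved, 261.5 ± 11.2 CPM in re-added and 189.9 ± 2.175 CPM in Rap cells, and Gpt2, the mitochondrial alanine aminotransferase, had 30.2 ± 3.225 CPM in control, 109.6 ± 11.85 CPM in starved, 37.9 ± 0.508 CPM in re-added and 31.5 ± 1.66 CPM in Rap cells. All 3 rose in starved cells (log2 fold changes 2.03, 1.93 and 1.86) and fell on re-addition (-1.91, -1.75 and -1.53), each called. With Rap, Chac1 (-0.65, adjusted p = 0.00202) and Atf5 (-0.46, adjusted p = 0.0108) were lower than with re-addition alone, and Gpt2 was not called (-0.27, adjusted p = 0.12). The list was chosen with earlier results of these data known, so its direction is no independent evidence.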

How the data were processed

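Total RNA of 12 MIN6 libraries was sequenced as paired ends of 150 bases, per the labels' protocols. The authors deposited raw read counts per gene, 1 table per library with exon coordinates and length per the file headers, and a table of TPM values with gene names. Per the submitters' processing notes the build was GRCm38.p6, with Subread 2.0.1 and limma 3.46.0 and no role stated. The strand setting of the counting is not given in the sources used here. The 12 TPM columns were matched to libraries through the headers of the count tables, and 0 were left unassigned.

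The fit used edgeR 4.0.16 in R 4.3.3, with filterByExpr (minimum count 10, minimum total 15) and TMM factors. One quasi-likelihood model of all 12 libraries had a mean per group, which left 8 residual degrees of freedom. P-values were adjusted by Benjamini-Hochberg over the 16844 tested genes in each of 5 comparisons, with a threshold of 0.05. Values are mean ± SD over 3 libraries. A level of 5 CPM corresponds to 92.8 to 128 reads. Genes with a mean of 5 CPM or more in a group are named with values, and those of them called in a main comparison with a change of at least 2-fold there are given library by library. Slc7a5, Slc3a2, Slc38a10, Slc43a3, Slc6a14, Slc38a8 and Slc3a1, which this rule does not take, were given so as well, after their values were seen. From each of 2 other lists the 3 genes with the smallest p in an F test over the 4 groups are named. Alternatives used DESeq2 1.42.0, limma 3.58.1 on log2(TPM + 1), other scaling factors, no filter, a replicate block, the marker sum, and leaving out each library. Counts cover all genes of the families, and 1 of them is not reported here individually. The genes and lists were chosen with earlier results of these data known.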

Additional observations from a re-analysis of the deposited data

How the results depend on the processing

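For the 14 genes given library by library under the naming rule, and for Slc7a5 and Slc3a2, 1008 values were computed under 21 alternatives in the 3 main comparisons. Of these 972 kept their side of the threshold, 34 lost a call and 2 gained one. Among called values 0 changed sign. Within the 972, 13 values of 5 results that were never called did change sign. Among the counts of called genes, starved against control (21) ran from 20 to 25 with 1 library left out, re-added against starved (25) from 19 to 27, Rap against re-added (8) from 5 to 9, Rap against starved (34) from 26 to 35 and re-added against control (31) from 19 to 31. The share of all tested genes called moved as well. In re-added against control it was 24.8% higher and 24.5% lower with all libraries. Without re-added replicate 3 it was 17.8% and 12.6%. The ranges alone therefore show nothing particular to transporter genes. Between libraries of like marker level the count was 15 in re-added against starved and 19 in Rap against starved, where fewer libraries were compared, and with the marker sum as a covariate it was 11 in re-added against control, and the cause of the last was not tested. No library of the re-added group reached the marker level of control, so the comparison with control could not be run on libraries of like level.

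The same replicate numbers occur in all groups, but no label says that a number marks a shared culture or day. Deviations of same-numbered libraries from their group means correlated between -0.33 and 0.81, over 0.1 in 2 of 18 pairs. Those 2 pairs were starved and re-added replicate 1 (0.81, marker sums 1891 and 809 CPM) and replicate 2 (0.67, 161 and 168 CPM). Differently numbered pairs correlated between -0.83 and 0.63, over 0.1 in 9 of 36. The numbers were not taken as pairing. With a replicate block the counts were 21, 25, 6, 32 and 29 in the order above. The shares of all tested genes are not given beside them, so these counts show nothing particular to transporter genes. Rap calls on Slc6a12 (0.47, adjusted p = 0.0744) and Slc7a11 (-1.01, adjusted p = 0.0771) were those lost under the block among the named genes, in edgeR. Genes near 1 CPM rest on few reads, and differences there were not detectable unless large.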
